A study of Drosophila melanogaster with 9 samples.

Results

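Renal tubules of tumour-bearing flies in which the hormone gene ITP was targeted by RNA interference were compared with tubules of flies bearing the same tumour alone. The comparison takes every library that the labels give to these 2 genotypes, 3 from yki3SA+ITP-i flies and 3 from yki3SA flies, which makes 6 of the 9 libraries of the series, and covers all genes. The other 3 libraries are controls, and their levels are given beside the results. All 3 genotypes shared the driver esg-Gal4, its temperature-sensitive repressor tub-Gal80ts and the marker UAS-GFP. The yki3SA+ITP-i flies also carried UAS-Yki-3SA and UAS-ITP-i, and the yki3SA flies carried UAS-Yki-3SA. Yki-3SA is an activated form of Yorkie, the growth regulator that the Hippo pathway holds back, and UAS-ITP-i is an RNA interference construct against ITP. The repressor blocks the driver in the cold, so virgins were held at 18 °C for 6 to 8 days and shifted to 29 °C for 8 days to switch the transgenes on. RNA of 80 Malpighian tubules per genotype was enriched for polyadenylated transcripts and sequenced.

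The esg driver works in gut progenitors and in the stem cells of the tubules, so that both constructs are driven in those cells, while most RNA of a tubule comes from its differentiated cells. No genotype carried a neutral interference construct, and the groups do not match in how many UAS transgenes they hold. The titles mark the yki3SA and control libraries as re-analysed and the yki3SA+ITP-i libraries not. A batch may therefore coincide with the ITP-i genotype, and genotype and batch cannot be told apart in any result below. The labels do not say that libraries of a group came from separate cultures, so p-values measure the spread between these libraries, which may be technical.

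Malpighian tubules make the fly's urine. Large principal cells pump protons and potassium with a V-type ATPase and a sodium pump, slender stellate cells pass chloride and water, and hormones set the rate through cyclic AMP, cyclic GMP and calcium. Ion transport peptide (ITP) is an insect antidiuretic hormone of neuroendocrine origin that lowers water loss. Cation-chloride cotransporters such as NKCC and Ncc69 bring potassium and chloride into the cell with sodium and are switched by the kinases Wnk and fray, and aquaporins carry water or small solutes across the membranes.

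The 6 tumour libraries held similar numbers of reads assigned to genes, 41978250, 40962290 and 41123890 in yki3SA+ITP-i and 34640437, 40867555 and 49338340 in yki3SA, against 36088638 to 45728599 in control. The share of counts in the 10 most abundant genes was 14.7% to 15.9% in yki3SA+ITP-i, 11.8% to 13.2% in yki3SA and 15.9% to 17.1% in control. Single-gene levels below are CPM (counts scaled to library size) after TMM scaling, as values of libraries 1, 2 and 3 in that order or as mean ± SD of 3 libraries. Changes are log2 fold changes of yki3SA+ITP-i over yki3SA, so that a negative value means lower in yki3SA+ITP-i. A gene was called when its adjusted p was under 0.05 in edgeR's quasi-likelihood test over all 10253 genes tested. Markers of the organ were present in every group, and none of the 14 principal cell markers or 10 stellate cell markers was at 0 in any group.

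ITP (FBgn0035023, arm 2R), the target of the interference, was at 51.7, 63.7 and 60.4 CPM in yki3SA+ITP-i, 56.8, 77.04 and 71.2 in yki3SA and 32.7, 33.46 and 44.7 in control. The yki3SA+ITP-i and yki3SA libraries overlapped, and the difference did not pass the test (log2 fold change -0.22, SE 0.16, adjusted p = 0.35). A lower ITP transcript level was thus not detected in tubules of the knockdown genotype, and ITP in the esg-positive cells was not measured on its own. The driver gene esg (FBgn0287768) was at 3.57, 2.3 and 2.78 CPM in yki3SA+ITP-i, 2.26, 6.69 and 2.14 in yki3SA and 5.996, 5.47 and 5.67 in control, and it was not called (log2 -0.36, adjusted p = 0.58). The gene yki (FBgn0034970) averaged 77.9 ± 9.04 CPM in yki3SA+ITP-i, 82.97 ± 7.61 in yki3SA and 73.3 ± 8.96 in control and was not called (log2 -0.09, adjusted p = 0.66). Its counts were not split between the native gene and the UAS-Yki-3SA transgene. Of the pigment and bristle genes that mark fly stocks, w was at 43.03, 104 and 101 CPM in yki3SA+ITP-i and 135, 86.53 and 60.05 CPM in yki3SA, with overlap, and was not called (log2 -0.18, adjusted p = 0.79). The eye colour gene v averaged 3.7 ± 0.732 CPM in yki3SA+ITP-i, 1.19 ± 0.275 in yki3SA and 4.77 ± 2.21 in control and rose (log2 1.63, adjusted p = 0.018). That call was lost without yki3SA+ITP-i library 1 or 2 or yki3SA library 1 and in fits with a gut marker covariate. The eye pigment transporter gene bw averaged 75.4 ± 8.96 CPM in yki3SA+ITP-i, 108 ± 16.7 in yki3SA and 89.9 ± 11.7 in control and fell (log2 -0.52, adjusted p = 0.034). Its call was lost without yki3SA+ITP-i library 1 or 3, yki3SA library 1 or 2 or control library 3, in fits with a fat body, gut or ovary marker covariate and with DESeq2 size factors.

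Of the 10253 genes tested, 1089 were higher in yki3SA+ITP-i tubules (10.6%) and 1037 were lower (10.1%), and the median over all genes was -0.04. The rises were larger than the falls. At least 2-fold differences were called for 661 genes that rose and 222 that fell, and at least 4-fold ones for 327 and 67. The shares of rises and falls depended on scaling, with 1256 higher and 734 lower under upper-quartile factors and 883 higher and 2243 lower with total counts alone. Leaving out yki3SA+ITP-i library 1 or 2 or yki3SA library 2 took the total of 2126 calls to 1028, 1308 and 1371. In a fit with the summed gut marker level as a covariate, the total was 677. Libraries of the 2 tumour genotypes did not overlap for 4285 of the genes tested (41.8%). This held for 2116 of the 2126 called genes, so a lack of overlap adds little to a call below.

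**Figure D1:**
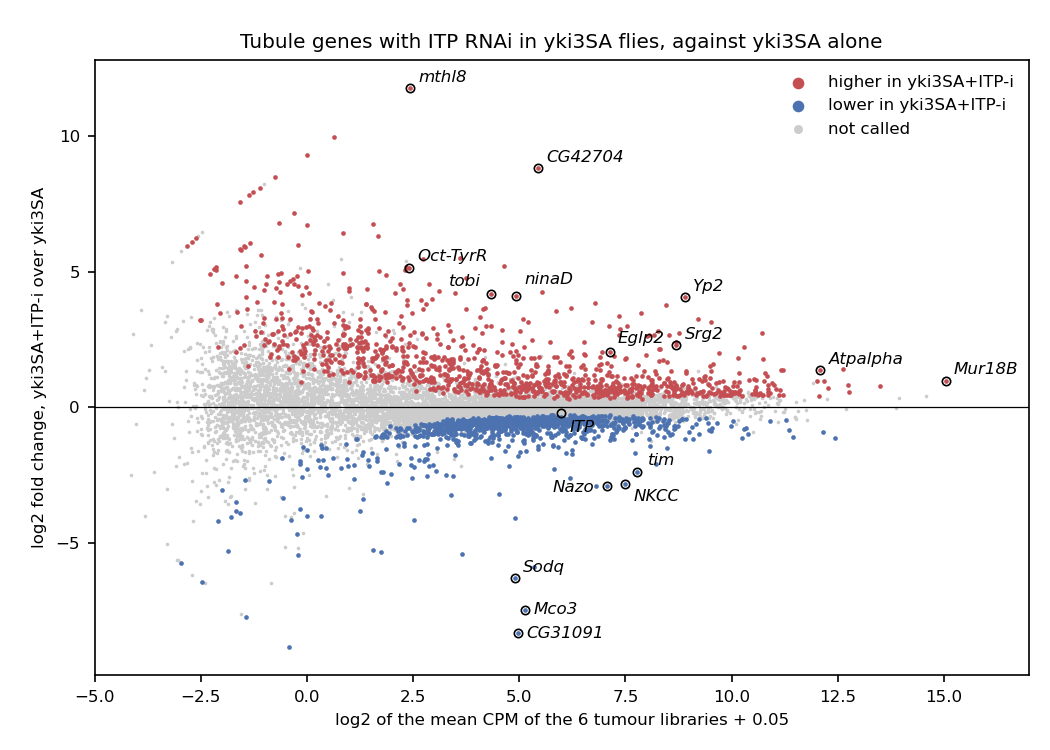
Each point is 1 of 10253 genes, with the log2 of its mean CPM over the 6 tumour libraries on the x axis and the log2 fold change of yki3SA+ITP-i over yki3SA on the y axis. Red points (1089) were called higher and blue points (1037) lower at adjusted p under 0.05, and circles mark genes named in the text, with ITP near 0 and NKCC among the strongly expressed genes that fell.

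Markers of neighbouring organs moved in the same libraries, and in bulk RNA fewer cells of a type and less RNA per cell cannot be told apart. Of 54 gut enterocyte and digestive enzyme genes tested, 17 were higher and 3 lower, and the summed level of all 60 ran over 359 to 773 CPM in yki3SA+ITP-i, 179 to 439 CPM in yki3SA and 661 to 1487 CPM in control. The list members deltaTry and Npc2e had no count in any yki3SA+ITP-i library, and Jon25Bi, Jon65Aii, LysS, gammaTry, zetaTry, deltaTry and Npc2e had none in any yki3SA library. Of 26 fat body and yolk genes 12 were higher and 5 lower, with sums of 3661 to 5509 CPM in yki3SA+ITP-i, 3894 to 4322 CPM in yki3SA and 4609 to 8412 CPM in control and no member at 0. Of 30 ovary, chorion and vitelline genes 10 were higher and none lower, with sums of 161 to 405 CPM in yki3SA+ITP-i, 117 to 362 CPM in yki3SA and 275 to 447 CPM in control, and BicC was at 0 in every library. Yolk protein genes were among the members that rose. Yp2 (FBgn0005391, arm X) was at 1234, 687 and 780.4 CPM in yki3SA+ITP-i, 50.2, 71.9 and 38.45 in yki3SA and 1376, 697 and 1840.5 in control, higher in every yki3SA+ITP-i library than in any yki3SA library (log2 fold change 4.07, SE 0.41, adjusted p = 2.4e-04), and Yp1 and Yp3 rose by 3.46 and 3.25. Leaving out yki3SA+ITP-i library 1 gave 11 higher for the gut list and 6 for the ovary list. Of 25 hemocyte and basement membrane genes 3 were higher (1 without yki3SA+ITP-i library 2 or yki3SA library 3) and 1 lower, with sums of 2698 to 2780.4 CPM in yki3SA+ITP-i, 3248 to 3640.4 CPM in yki3SA and 2036 to 2408 CPM in control. Of 28 muscle genes 9 were higher (2 without yki3SA+ITP-i library 1 or yki3SA library 2 or 3, 3 without yki3SA+ITP-i library 3) and 2 lower, with sums of 2767 to 2812 CPM in yki3SA+ITP-i, 2723 to 2910.0 CPM in yki3SA and 2068 to 2130.0 CPM in control. The summed levels of yki3SA+ITP-i and yki3SA libraries overlapped for the gut, fat body and ovary lists, with or without TMM scaling. For the other two lists the overlap depended on scaling. Hemocyte and basement membrane sums were lower without overlap in CPM of total counts and overlapped after TMM scaling, at 2614 to 2906 CPM in yki3SA+ITP-i and 2737 to 3331 CPM in yki3SA. Muscle sums overlapped in CPM of total counts and were higher without overlap after TMM scaling, at 2682 to 2947 CPM in yki3SA+ITP-i and 2318 to 2662 CPM in yki3SA. Effects of these tissues on the gene groups below were not tested. The covariate fits given beside the groups are no such test, because a marker sum can itself differ between the genotypes. The gut sum averaged 543 CPM in yki3SA+ITP-i and 298 CPM in yki3SA, so a call lost in that fit does not separate tissue from genotype.

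Single genes for hormone receptors and second messengers were called in both directions. Of 31 diuretic hormone receptor and cyclic AMP genes, 6 rose (3 without yki3SA+ITP-i library 1 or 2 or yki3SA library 3) and 3 fell, or 3 and 7 with total-count scaling. With TMM scaling 19.4% were higher and 9.68% lower, beside 10.6% and 10.1% of all genes tested, so the share lower was near that of all genes. ACXD (FBgn0040507, arm 3L), an adenylyl cyclase, which makes cyclic AMP, was at 175, 185 and 106 CPM in yki3SA+ITP-i, 36.3, 28.3 and 23.1 in yki3SA and 101, 87.7 and 87.3 in control. All 3 yki3SA+ITP-i libraries lay above all yki3SA and all control libraries (log2 fold change 2.41, SE 0.23, adjusted p = 2.0e-04). Oct-TyrR (FBgn0004514, arm 3L), a receptor for octopamine and tyramine, was at 9.98, 8.42 and 12.1 CPM in yki3SA+ITP-i, 0.6, 0.201 and 0.0837 in yki3SA and 0.622, 0.134 and 0.543 in control. It was near the floor in yki3SA and control and at about 10 CPM in yki3SA+ITP-i (log2 fold change 5.15, SE 0.72, adjusted p = 0.0015). The adenylyl cyclase gene Ac13E averaged 358 ± 35.96 CPM in yki3SA+ITP-i, 209 ± 25.7 in yki3SA and 332 ± 32.8 in control and also rose (log2 0.78, adjusted p = 0.0041).

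Pka-C3 (FBgn0000489, arm 3L), a catalytic subunit of the kinase that cyclic AMP activates, was at 118, 130.1 and 112 CPM in yki3SA+ITP-i, 271, 303 and 270.1 in yki3SA and 209, 198 and 207 in control. It was lowest in yki3SA+ITP-i, below both other groups, with no overlap (log2 fold change -1.23, SE 0.10, adjusted p = 9.8e-05). Dh44-R2, a receptor of the diuretic hormone DH44, averaged 47.4 ± 4.46 CPM in yki3SA+ITP-i, 73.2 ± 6.003 in yki3SA and 70.7 ± 3.1 in control and fell (log2 -0.63, adjusted p = 0.004). The stimulatory G protein gene Galphas averaged 72.2 ± 2.89 CPM in yki3SA+ITP-i and 95.00 ± 7.93 in yki3SA and fell (log2 -0.40, adjusted p = 0.017), a call lost without yki3SA+ITP-i library 1 or 2 or yki3SA library 1 or 2 and in fits with a gut marker covariate. CapaR, the receptor of the Capa diuretic peptides, averaged 154 ± 14.3 CPM in yki3SA+ITP-i, 113 ± 9.09 in yki3SA and 160.0 ± 5.83 in control and rose (log2 0.45, adjusted p = 0.017). That call was lost without yki3SA+ITP-i library 1 or 2 or yki3SA library 3, in fits with a gut marker covariate and with total-count scaling.

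Receptors of 2 other diuretic peptides were not called. Dh31-R averaged 348 ± 32.4 CPM in yki3SA+ITP-i and 431 ± 20.49 in yki3SA (log2 -0.31, adjusted p = 0.085), and the leucokinin receptor gene Lkr averaged 56.7 ± 10.04 CPM in yki3SA+ITP-i and 41.7 ± 2.83 in yki3SA (log2 0.44, adjusted p = 0.073). The tachykinin receptor gene TkR99D was at 7.63, 7.89 and 7.61 CPM in yki3SA+ITP-i and 5.1, 10.9 and 8.77 CPM in yki3SA, with the yki3SA+ITP-i values inside the yki3SA range (adjusted p = 0.83). Its relative TkR86C was at 17.4, 20.01 and 21.1 CPM in yki3SA+ITP-i, 13.3, 2.31 and 3.499 in yki3SA and 0.672, 0.215 and 0.784 in control. The yki3SA+ITP-i libraries lay above the yki3SA ones, but the spread in yki3SA was wide and the gene did not pass the test (log2 1.62, adjusted p = 0.079).

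Of 16 ITP and cyclic GMP signalling genes tested, 2 rose and none fell, and both calls depended on single libraries. Nos, the nitric oxide synthase gene, averaged 1.7 ± 0.28 CPM in yki3SA+ITP-i, 0.442 ± 0.196 in yki3SA and 0.395 ± 0.209 in control (log2 1.95, adjusted p = 0.033). Its call was lost without yki3SA+ITP-i library 1, 2 or 3 or yki3SA library 2 or 3, in fits with a fat body or gut marker covariate, with the replicate block and without both tumour libraries numbered 3. The phosphodiesterase gene Pde1c averaged 9.73 ± 0.798 CPM in yki3SA+ITP-i and 6.32 ± 1.09 in yki3SA (log2 0.62, adjusted p = 0.036) and its call was lost in 12 of 23 alternative fits. The cyclic GMP phosphodiesterase genes Pde6 and Pde11 differed by 0.03 and -0.17, and the cyclic GMP-dependent kinase genes for and Pkg21D by 0.08 and -0.05, none of them called (adjusted p = 0.94, 0.49, 0.77 and 0.92). The receptor guanylyl cyclase gene Gyc76C was at 1.34, 0.536 and 0.943 CPM in yki3SA+ITP-i and 0.9, 0.873 and 0.921 CPM in yki3SA (adjusted p = 0.94).

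NKCC (FBgn0051547, arm 3R), a cotransporter that carries sodium, potassium and chloride together into the cell, was at 42.6, 45.50 and 44.2 CPM in yki3SA+ITP-i, 287, 371 and 288 in yki3SA and 28.7, 24.2 and 32.6 in control. The yki3SA+ITP-i libraries were tightly grouped, far below all yki3SA libraries and above all control libraries (log2 fold change -2.84, SE 0.15, adjusted p = 1.4e-05). The call held in each of the 23 alternative fits. None of the other 6 genes of cation-chloride cotransport and its kinases was called lower. With total-count scaling 4 of the list were lower, NKCC included. Ncc69 (FBgn0036279), a second sodium-potassium-chloride cotransporter, was at 19.2, 23.50 and 16.4 CPM in yki3SA+ITP-i, 15.3, 27.96 and 17.6 in yki3SA and 10.52, 10.2 and 7.6 in control, and its yki3SA+ITP-i libraries lay within the yki3SA range (log2 -0.04, adjusted p = 0.92). The potassium-chloride cotransporter gene kcc averaged 14.1 ± 1.41 CPM in yki3SA+ITP-i and 19.01 ± 3.78 in yki3SA and was not called (log2 -0.43, adjusted p = 0.091). Wnk, which activates fray, was not called (log2 -0.14, adjusted p = 0.65), and neither was the kinase scaffold gene Mo25 (log2 -0.11, adjusted p = 0.52). The kinase gene fray averaged 88.9 ± 1.32 CPM in yki3SA+ITP-i, 64.7 ± 9.88 in yki3SA and 83.8 ± 8.38 in control and rose (log2 0.46, adjusted p = 0.031), a call lost without yki3SA+ITP-i library 1, 2 or 3 or yki3SA library 1 or 3, in fits with a fat body or gut marker covariate, with total-count scaling and without both tumour libraries numbered 3.

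**Figure D2:**
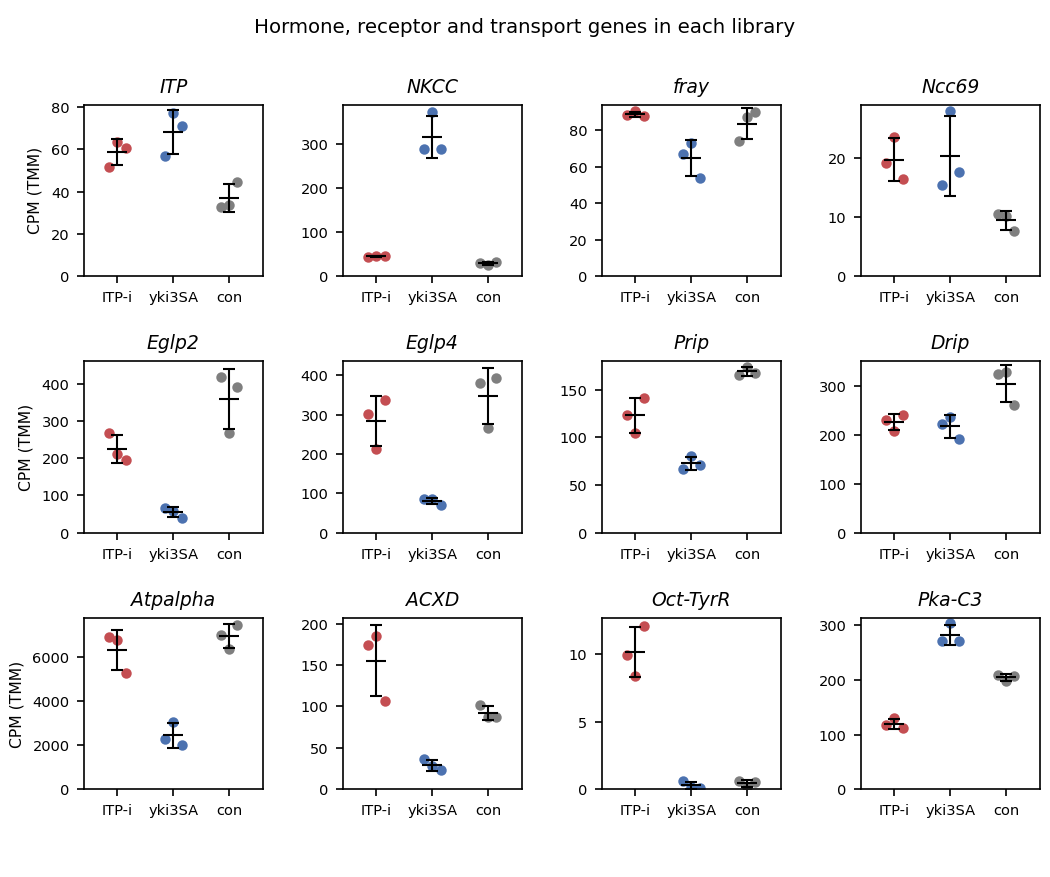
CPM after TMM scaling of 12 hormone, receptor and transport genes, with 1 point per library, the mean as a bar and the SD over 3 libraries as whiskers, for yki3SA+ITP-i (ITP-i), yki3SA and control (con). NKCC sat at 42.6 to 45.5 CPM in yki3SA+ITP-i and at 287 to 371 CPM in yki3SA, Eglp2, Eglp4, Prip and Atpalpha were higher in yki3SA+ITP-i without overlap, and ITP overlapped.

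Of 7 aquaporin genes tested, 4 were higher, 3 were not called and none was lower, with a median log2 fold change of 1.004, and the count was 3 or 4 in each of the 23 alternative fits. Eglp2 (FBgn0034883, arm 2R), an aquaglyceroporin of principal cells, was at 269, 211 and 196 CPM in yki3SA+ITP-i, 65.1, 59.2 and 39.52 in yki3SA and 419.5, 267 and 390.5 in control. The yki3SA+ITP-i libraries lay above every yki3SA library, and library 1 reached the lowest control library (log2 fold change 2.04, SE 0.23, adjusted p = 4.7e-04). Its neighbour Eglp4 (FBgn0034885) was at 301, 212 and 338 CPM in yki3SA+ITP-i, 85.1, 85.7 and 70.8 in yki3SA and 382, 265 and 394 in control (log2 fold change 1.82, SE 0.21, adjusted p = 4.6e-04). Groups did not overlap between yki3SA+ITP-i and yki3SA for either gene. Prip, a stellate cell water channel, averaged 123 ± 18.3 CPM in yki3SA+ITP-i, 72.6 ± 6.97 in yki3SA and 169 ± 4.4 in control and rose (log2 0.76, SE 0.13, adjusted p = 0.0034). Drip, the other stellate cell water channel of the list, averaged 226 ± 16.1 CPM in yki3SA+ITP-i, 217 ± 22.7 in yki3SA and 305 ± 38.2 in control and was not called (log2 0.06, adjusted p = 0.8). The fourth call was Eglp1, expressed at no more than 2.23 CPM in any tumour library (log2 1.99, adjusted p = 0.026). That call was lost without yki3SA+ITP-i library 1 or yki3SA library 1 or 3, in fits with a gut or ovary marker covariate and without both tumour libraries numbered 3.

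Of 14 principal cell markers 7 rose, of 10 stellate cell markers 1 and of 14 renal stem cell markers none, and the difference between these shares was not tested. Principal cell markers had a median of 0.54. With 1 library left out, 4, 4, 7, 6, 7 and 5 of them were called higher, in the order yki3SA+ITP-i libraries 1 to 3 and then yki3SA libraries 1 to 3, which is used for such counts below. Their summed level was 16275 to 20638 CPM in yki3SA+ITP-i, 12969 to 15224 CPM in yki3SA and 16821 to 22068 CPM in control, higher in every yki3SA+ITP-i library than in any yki3SA library. Besides Eglp2 and Eglp4, Best2, a calcium-activated chloride channel gene, averaged 28.2 ± 4.3 CPM in yki3SA+ITP-i, 9.04 ± 0.132 in yki3SA and 36.1 ± 8.06 in control and rose (log2 1.64, SE 0.18, adjusted p = 4.0e-04). Uro, the urate oxidase gene, averaged 3300.2 ± 571 CPM in yki3SA+ITP-i, 1263 ± 387 in yki3SA and 1751 ± 196 in control and rose (log2 1.39, SE 0.23, adjusted p = 0.0034). The stellate cell chloride channel genes ClC-a and SecCl were not called (log2 -0.19 and 0.15, adjusted p = 0.48 and 0.67). Prip was the stellate cell marker that rose. Stem cell markers overlapped in sum, with 603 to 639 CPM in yki3SA+ITP-i, 589.8 to 810.2 CPM in yki3SA and 474 to 692 CPM in control.

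The sodium pump subunit gene Atpalpha (FBgn0002921, arm 3R) was at 6882, 6727 and 5263 CPM in yki3SA+ITP-i, 2286, 3047 and 1979 in yki3SA and 6976, 6356 and 7429 in control. All yki3SA+ITP-i libraries lay above all yki3SA libraries, and library 3 lay below the control libraries (log2 fold change 1.37, SE 0.18, adjusted p = 9.8e-04). Of 18 genes for the pump, exchangers and phosphate transport, 4 rose and 2 fell (0 without yki3SA+ITP-i library 1, 1 without yki3SA+ITP-i library 2 or 3 or yki3SA library 2). SLC5A11, a sodium-coupled solute transporter, averaged 87.54 ± 14.6 CPM in yki3SA+ITP-i, 24.3 ± 3.76 in yki3SA and 81.7 ± 30.9 in control and rose (log2 1.85, adjusted p = 0.0015), and the anion exchanger gene Prestin rose by 0.83 (adjusted p = 0.0058). Its call was lost in fits with a gut marker covariate. NaPi-T, a phosphate transporter, averaged 2348 ± 469 CPM in yki3SA+ITP-i, 1334 ± 136 in yki3SA and 3297 ± 665 in control (log2 0.82, adjusted p = 0.015), a call lost without yki3SA+ITP-i library 1 or 2 and in fits with a gut marker covariate. The sodium-driven anion exchanger gene Ndae1 averaged 772 ± 141 CPM in yki3SA+ITP-i, 1257 ± 159.8 in yki3SA and 933 ± 173 in control and fell (log2 -0.70, adjusted p = 0.025). That call was lost without yki3SA+ITP-i library 1 or 3 or yki3SA library 2, in fits with a gut or ovary marker covariate and without both tumour libraries numbered 3.

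Of 27 ion channel genes, 4 rose and 2 fell (0 without yki3SA+ITP-i library 2, 1 without yki3SA+ITP-i library 1 or yki3SA library 1, 2 or 3). Besides Best2, the potassium channel gene Ork1 averaged 25.6 ± 7.45 CPM in yki3SA+ITP-i, 6.26 ± 3.4 in yki3SA and 46.4 ± 7.06 in control and rose (log2 2.02, SE 0.35, adjusted p = 0.0041). The gap junction genes Inx2 and ogre rose by 0.60 and 1.68 (adjusted p = 0.007 and 0.004), calls lost in the fit with a gut marker covariate. Irk3, an inward rectifier potassium channel, averaged 1169 ± 117 CPM in yki3SA+ITP-i and 986 ± 66.3 in yki3SA and was not called (adjusted p = 0.16).

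Of 25 V-ATPase subunit genes 2 were higher and 3 lower, near the shares of all genes, with 1 higher without yki3SA library 2, and the strongly expressed subunit genes Vha68-2, Vha16-1 and Vha55 were not called (log2 -0.12, -0.07 and -0.20, adjusted p = 0.48, 0.79 and 0.27). With total-count scaling 2 were higher and 10 lower. Their summed level was 21295 to 24872 CPM in yki3SA+ITP-i, 26908 to 28370.3 CPM in yki3SA and 26403 to 27949 CPM in control, lower in every yki3SA+ITP-i library than in any yki3SA library. After TMM scaling the sums overlapped, at 22256 to 25111 CPM in yki3SA+ITP-i and 22219.7 to 26508 CPM in yki3SA. The 5 subunit genes that were called had low counts. Vha68-3 averaged 4.63 ± 0.731 CPM in yki3SA+ITP-i and 0.7 ± 0.334 in yki3SA and rose (log2 2.73, adjusted p = 0.003), and VhaAC39-2 averaged 0.403 ± 0.0877 CPM in yki3SA+ITP-i and 2.33 ± 0.318 in yki3SA and fell (log2 -2.52, adjusted p = 0.0033). Carbonic anhydrases hydrate carbon dioxide and so supply protons and bicarbonate. Of 9 genes tested, 1 was higher and 2 were lower. The higher one, CAH5, averaged 0.914 ± 0.484 CPM in yki3SA+ITP-i and 0.0364 ± 0.063 in yki3SA, with no count in yki3SA libraries 2 and 3 (log2 4.83, adjusted p = 0.0069). CAH2 (FBgn0027843, arm 3L) was at 233, 180.3 and 233 CPM in yki3SA+ITP-i, 482, 498 and 418 in yki3SA and 236, 295 and 270.3 in control, lower in every yki3SA+ITP-i library than in any yki3SA library (log2 fold change -1.11, SE 0.14, adjusted p = 9.1e-04). CAH3 fell likewise, with 198 ± 14.46 CPM in yki3SA+ITP-i and 405 ± 60.2 in yki3SA (log2 -1.04, adjusted p = 8.5e-04).

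Transporters of organic solutes, through which tubules clear toxins and metabolites, rose in number. Of 22 tested, 11 were higher and 1 lower, with a median of 0.68, with 7, 8, 11, 10, 10 and 9 higher when 1 library was left out and 5 in the fit with a gut marker covariate. CarT, a carcinine transporter, averaged 6.51 ± 1.07 CPM in yki3SA+ITP-i, 1.37 ± 0.222 in yki3SA and 0.861 ± 0.353 in control and rose (log2 2.25, SE 0.34, adjusted p = 0.002). The organic anion transporter gene Oatp58Da (FBgn0050277, arm 2R) was at 523, 537 and 388 CPM in yki3SA+ITP-i, 236, 263 and 199 in yki3SA and 741, 559 and 707 in control, with no overlap between yki3SA+ITP-i and yki3SA (log2 fold change 1.05, SE 0.17, adjusted p = 0.003). Oatp30B averaged 445 ± 35.2 CPM in yki3SA+ITP-i, 238 ± 31.4 in yki3SA and 307 ± 21.3 in control and rose (log2 0.90, adjusted p = 0.0015), and the pigment precursor transporter gene st averaged 624 ± 12.4 CPM in yki3SA+ITP-i, 381 ± 34.48 in yki3SA and 1057 ± 126 in control and rose (log2 0.71, adjusted p = 0.004). The strongly expressed member salt was not called, with 5009 ± 1626 CPM in yki3SA+ITP-i and 2720.2 ± 748 in yki3SA (log2 0.88, adjusted p = 0.11).

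Of 18 sugar transporter genes 6 rose and none fell, or 2 in the fit with a gut marker covariate. Glut1 averaged 162 ± 11.45 CPM in yki3SA+ITP-i, 79.1 ± 7.77 in yki3SA and 181 ± 29.7 in control (log2 1.03, SE 0.14, adjusted p = 0.0011), and MFS9 averaged 13.02 ± 2.81 CPM in yki3SA+ITP-i, 0.947 ± 0.759 in yki3SA and 32.2 ± 9.14 in control (log2 3.80, SE 0.54, adjusted p = 0.0016). The trehalose transporter gene Tret1-1 was not called (log2 -0.39, adjusted p = 0.11). Of 32 genes for zinc, copper and iron, 6 rose (2 without yki3SA+ITP-i library 1 or yki3SA library 3, 3 without yki3SA+ITP-i library 2 or yki3SA library 1) and 2 fell, or 3 and 9 with total-count scaling. Tsf1 (FBgn0022355, arm X), the iron carrier transferrin, was at 396, 218 and 283 CPM in yki3SA+ITP-i, 38.1, 31.99 and 16.1 in yki3SA and 151, 180.1 and 183 in control. Every yki3SA+ITP-i library lay above every yki3SA library by a wide margin (log2 fold change 3.38, SE 0.33, adjusted p = 2.0e-04). The zinc transporter gene ZnT63C averaged 326 ± 21.52 CPM in yki3SA+ITP-i, 526 ± 17.9 in yki3SA and 495 ± 69.8 in control and fell (log2 -0.69, adjusted p = 0.0053).

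Purine genes moved in both directions, 4 of 21 higher (2 without yki3SA+ITP-i library 1) and 9 lower, with a median of -0.23. The numbers lower were 5, 4, 8, 7, 5 and 6 with 1 library left out, and 3 in the fit with a gut marker covariate. Uro breaks down uric acid, and its rise is given above. Adk3, an adenylate kinase, averaged 203 ± 17.3 CPM in yki3SA+ITP-i, 64.7 ± 6.01 in yki3SA and 277 ± 63.49 in control and rose (log2 1.65, SE 0.17, adjusted p = 3.0e-04). Adgf-A, a secreted adenosine deaminase, averaged 34.98 ± 3.31 CPM in yki3SA+ITP-i, 74.4 ± 9.65 in yki3SA and 9.82 ± 0.883 in control and fell (log2 -1.09, SE 0.13, adjusted p = 6.6e-04). Pfas, an enzyme of purine synthesis, fell (log2 -0.68, adjusted p = 0.0032).

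**Figure D3:**
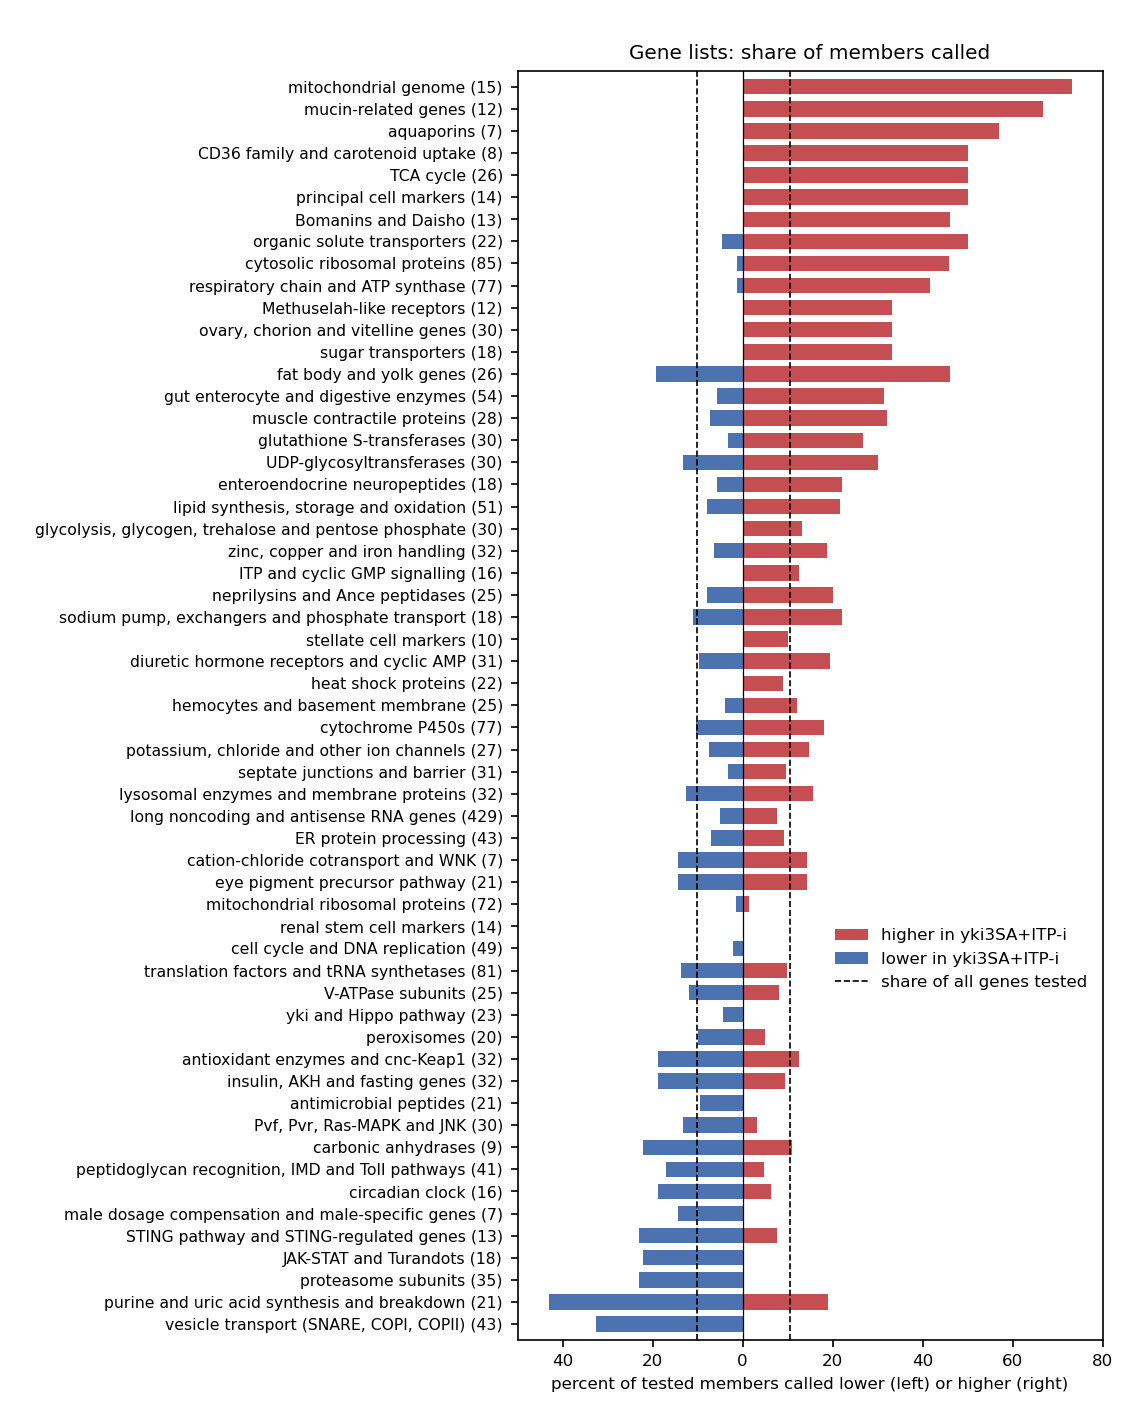
Percent of tested members called higher (red, right) or lower (blue, left) in yki3SA+ITP-i for the 57 gene lists with at least 7 tested members, whose number stands in brackets, and dashed lines for the shares of all genes tested (10.6% and 10.1%). The mitochondrial genome, mucin-related genes and aquaporins lie at the top, and vesicle transport and proteasome genes near the bottom.

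Of 26 TCA cycle genes 13 were higher and none lower, with a median of 0.46. The number was 8, 8, 14, 14, 8 and 8 with 1 library left out, and 5 in the fit with a gut marker covariate. SdhA (FBgn0261439, arm 2R), a subunit of succinate dehydrogenase, was at 737, 754 and 668 CPM in yki3SA+ITP-i, 367, 374 and 320.2 in yki3SA and 865, 799 and 811 in control. Both other groups lay above yki3SA without overlap, and the yki3SA+ITP-i libraries lay below the control libraries (log2 fold change 1.03, SE 0.11, adjusted p = 3.7e-04). The aconitase gene mAcon1 averaged 1638 ± 105 CPM in yki3SA+ITP-i, 682 ± 32.3 in yki3SA and 2118 ± 135 in control (log2 1.26, SE 0.11, adjusted p = 1.1e-04), and the fumarase gene Fum1 averaged 351 ± 22.8 CPM in yki3SA+ITP-i, 138 ± 14.51 in yki3SA and 398 ± 53.3 in control (log2 1.34, SE 0.13, adjusted p = 2.3e-04).

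Of 77 tested genes in the list for the respiratory chain and ATP synthase, 32 were higher and 1 lower, with a median of 0.36. This count was sensitive to single libraries, with 13, 19, 28, 49, 17 and 17 higher when 1 library was left out. It was 5 in the fit with a gut marker covariate. ATPsynC, a subunit of the ATP synthase rotor, averaged 2316 ± 121 CPM in yki3SA+ITP-i, 1174 ± 133 in yki3SA and 2402 ± 231 in control (log2 0.98, SE 0.13, adjusted p = 9.2e-04). ATPsynepsilonL, a relative of a synthase subunit, was the member that fell, with 0.137 ± 0.132 CPM in yki3SA+ITP-i and 2.3 ± 0.814 in yki3SA (log2 -4.03, adjusted p = 0.0073).

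Of 15 tested genes of the mitochondrial genome 11 rose and none fell, with a median of 0.996. No single library left out changed that count by more than 1.5 times. mt:ATPase6 (FBgn0013672), which encodes another synthase subunit, was at 2623, 2326 and 2510.4 CPM in yki3SA+ITP-i, 1104, 996 and 992 in yki3SA and 2347, 2278 and 2426 in control. The yki3SA+ITP-i and control libraries overlapped each other and lay above all yki3SA libraries (log2 fold change 1.27, SE 0.11, adjusted p = 9.8e-05). mt:ND5 and mt:Cyt-b, of complexes I and III, rose by 1.14 and 0.96 (adjusted p = 0.0013 and 8.6e-04). Ribosomal RNA of the mitochondrion was not called (mt:lrRNA, log2 0.42, adjusted p = 0.11). By contrast 1 of 72 mitochondrial ribosomal protein genes was higher and 1 lower, or none and 13 with total-count scaling. Of 30 glycolysis, glycogen and pentose phosphate genes 4 were higher and none lower, with calls lost without several of the single tumour libraries, down to 1 without yki3SA+ITP-i library 1 or 2 or yki3SA library 2 or 3. With total-count scaling 2 were higher and 7 lower.

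Of 85 cytosolic ribosomal protein genes tested, 39 were higher and 1 lower, with a median of 0.40. The count rested on single libraries, with 2, 19, 22, 72, 3 and 14 higher when 1 library was left out. It was 55 under upper-quartile factors, 19 with total counts and 0 in the fit with a gut marker covariate. RpS2 averaged 1427 ± 47.7 CPM in yki3SA+ITP-i, 915 ± 158 in yki3SA and 1636 ± 83.6 in control (log2 0.64, SE 0.14, adjusted p = 0.01). Its call was lost in fits with a gut marker covariate and without both tumour libraries numbered 3.

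In the vesicle transport and proteasome lists the called genes were lower. Of 43 genes for SNARE proteins and vesicle coats, 14 were lower and none higher, with a median of -0.31. The numbers were 5, 7, 10, 5, 7 and 9 with 1 library left out, 9 under upper-quartile factors, 25 with total counts and 2 in the fit with a gut marker covariate. Vamp7, a SNARE of late endosomes, averaged 46.03 ± 1.23 CPM in yki3SA+ITP-i, 80.1 ± 7.65 in yki3SA and 34.8 ± 3.72 in control and fell (log2 -0.80, SE 0.11, adjusted p = 0.0015). Syx17, a SNARE of autophagosomes, averaged 14.2 ± 1.09 CPM in yki3SA+ITP-i, 26.8 ± 1.33 in yki3SA and 12.2 ± 2.06 in control and fell (log2 -0.92, SE 0.14, adjusted p = 0.0026). The coat GTPase genes Sar1 and Arf1 were not called (adjusted p = 0.72 and 0.79).

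Of 35 proteasome subunit genes 8 were lower and none higher, with a median of -0.29. With 1 library left out there were 1, 1, 4, 1, 1 and 2, and most members did not pass the test. The number was 3 under upper-quartile factors, 3 with DESeq2 size factors, 1 in the fit with a gut marker covariate and 28 with total counts. Rpt6R (FBgn0039788, arm 3R), a relative of the ATPase subunit Rpt6, was at 3.27, 2.96 and 2.45 CPM in yki3SA+ITP-i, 18.8, 14.4 and 15.8 in yki3SA and 3.18, 2.84 and 2.05 in control, with the yki3SA+ITP-i and control libraries overlapping far below yki3SA (log2 fold change -2.498, SE 0.23, adjusted p = 1.5e-04). Prosalpha7, Rpn10 and Rpn6, subunits of the core and the cap, fell by smaller amounts (log2 -0.41, -0.38 and -0.40), and each of these calls was lost in at least 6 of the 23 alternative fits. Of 32 lysosomal genes 5 rose (2 without yki3SA+ITP-i library 1 or yki3SA library 3, 3 without yki3SA+ITP-i library 3) and 4 fell (1 without yki3SA+ITP-i library 1, 2 without yki3SA+ITP-i library 2 or yki3SA library 2). Their summed level was lower without overlap, at 6802 to 7129 CPM in yki3SA+ITP-i, 9165 to 10680 CPM in yki3SA and 5703 to 6570 CPM in control. After TMM scaling it was 6908 to 7252 CPM in yki3SA+ITP-i and 8006 to 9771 CPM in yki3SA, also without overlap. The protease gene cathD averaged 550.3 ± 44.6 CPM in yki3SA+ITP-i, 833 ± 65.47 in yki3SA and 462 ± 24.4 in control and fell (log2 -0.60, adjusted p = 0.0065).

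Immune genes split by class. Of 13 Bomanin and Daisho genes, short secreted peptides induced by Toll signalling, 6 were higher and none lower, with a median of 1.73, and no alternative fit moved the count by more than 1.5 times. BomS2 (FBgn0025583, arm 2R) was at 17.7, 14.49 and 11.7 CPM in yki3SA+ITP-i, 3.44, 4.19 and 4.55 in yki3SA and 8.66, 5.02 and 6.03 in control, above both yki3SA and control in every library (log2 fold change 1.85, SE 0.25, adjusted p = 0.0012). Dso1 averaged 7.97 ± 1.16 CPM in yki3SA+ITP-i, 2.15 ± 0.423 in yki3SA and 2.69 ± 0.732 in control (log2 1.89, SE 0.28, adjusted p = 0.0019), and BomBc2 averaged 7.66 ± 1.1 CPM in yki3SA+ITP-i, 2.53 ± 0.68 in yki3SA and 16.1 ± 3.09 in control (log2 1.59, SE 0.25, adjusted p = 0.0024). Bomanin genes resemble each other closely, so reads may have been split between them.

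Antimicrobial peptide genes, the targets of the IMD and Toll pathways, were mostly not called. Of 21 tested none rose and 2 fell, both at low counts. These were edin, an infection-induced secreted peptide, with 0.143 ± 0.145 CPM in yki3SA+ITP-i and 5.67 ± 2.4 in yki3SA (log2 -5.29, adjusted p = 0.0057), and Drsl3, a drosomycin relative, with 0.113 ± 0.11 CPM in yki3SA+ITP-i and 1.58 ± 0.396 in yki3SA (log2 -3.76, adjusted p = 0.016). DptA was at 191, 159 and 174 CPM in yki3SA+ITP-i, 233, 289 and 352 in yki3SA and 3.16, 1.45 and 4.04 in control (log2 -0.74, adjusted p = 0.082), and AttD averaged 81.51 ± 22.99 CPM in yki3SA+ITP-i, 80.3 ± 5.24 in yki3SA and 0.396 ± 0.145 in control (adjusted p = 0.96). Both tumour genotypes thus lay far above control for DptA and AttD, and neither gene was called between them. Of 41 recognition and signalling genes 2 rose (6 without yki3SA library 2) and 7 fell (4 without yki3SA+ITP-i library 1 or 3 or yki3SA library 2 or 3), with 14 lower under total-count scaling. PGRP-LF, an inhibitor of the IMD pathway, averaged 12.96 ± 1.32 CPM in yki3SA+ITP-i, 28.8 ± 5.54 in yki3SA and 12.9 ± 3.13 in control and fell (log2 -1.15, adjusted p = 0.0054). A further inhibitor, pirk, averaged 26.1 ± 6.51 CPM in yki3SA+ITP-i, 53.9 ± 3.81 in yki3SA and 10.4 ± 2.02 in control and fell (log2 -1.05, adjusted p = 0.0068). GNBP1, a recognition protein of the Toll pathway, averaged 19.6 ± 1.86 CPM in yki3SA+ITP-i, 7.67 ± 1.38 in yki3SA and 25.6 ± 2.84 in control and rose (log2 1.35, adjusted p = 7.0e-04).

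In the list for STING, the sensor pathway of cytosolic nucleic acid signals, the genes Nazo and Srg2 moved in opposite directions. Nazo (FBgn0037562, arm 3R), an antiviral gene, was at 29.3, 29.9 and 35.9 CPM in yki3SA+ITP-i, 302, 208 and 197 in yki3SA and 0.622, 1.42 and 1.02 in control. It was far above control in both tumour genotypes, and lower in every yki3SA+ITP-i library than in any yki3SA library (log2 fold change -2.89, SE 0.24, adjusted p = 9.5e-05). Srg2 (FBgn0262007, arm 3L) was at 744, 753 and 567 CPM in yki3SA+ITP-i, 134, 158 and 131 in yki3SA and 5.2, 6.82 and 6.15 in control, and here the yki3SA+ITP-i libraries were the highest (log2 fold change 2.29, SE 0.16, adjusted p = 3.8e-05). The RNA interference gene Dcr-2 averaged 67.97 ± 3.48 CPM in yki3SA+ITP-i, 125 ± 7.28 in yki3SA and 53.9 ± 4.6 in control and fell (log2 -0.88, SE 0.10, adjusted p = 4.8e-04). Of the 13 genes tested 1 rose and 3 fell. These shares were 7.69% and 23.1%, beside 10.6% and 10.1% of all genes tested, and were not compared by a test.

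**Figure D4:**
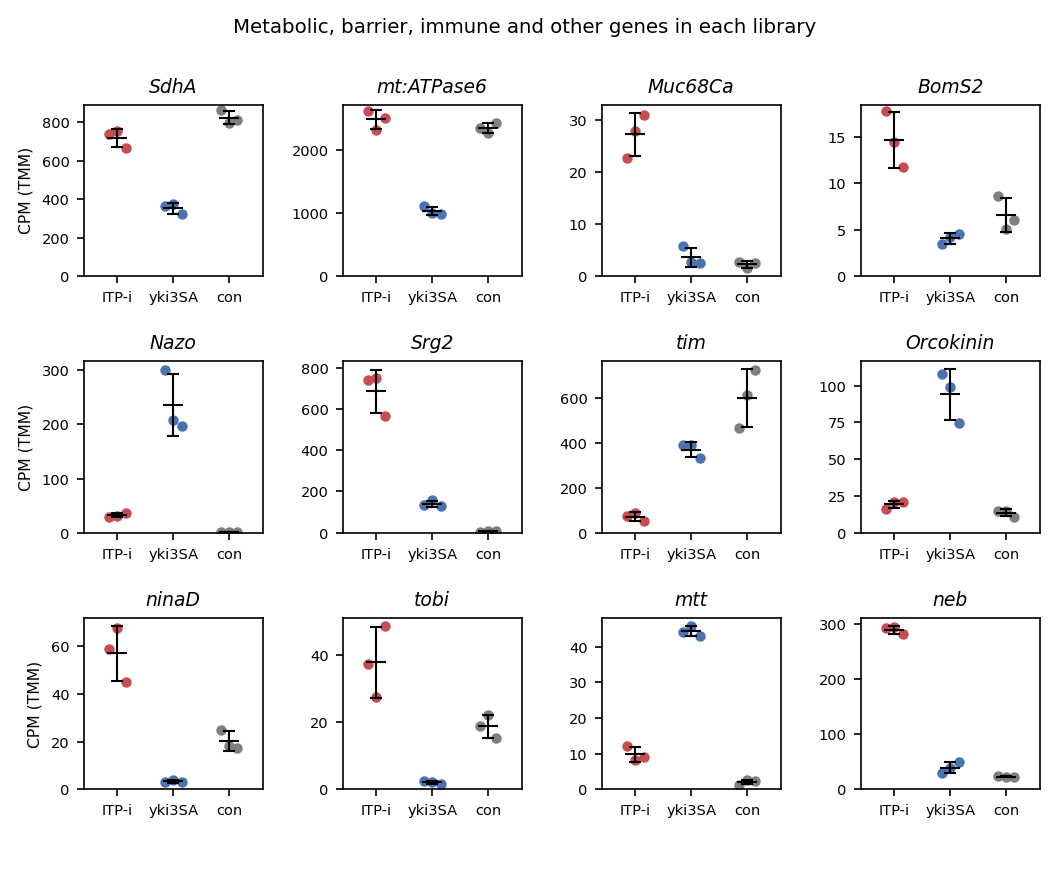
CPM after TMM scaling of 12 genes in each library, with points, means and SD whiskers as in the plot of transport genes, for yki3SA+ITP-i (ITP-i), yki3SA and control (con). Nazo, tim, Orcokinin and mtt were lower in yki3SA+ITP-i than in yki3SA, and SdhA, mt:ATPase6, Muc68Ca, BomS2, Srg2, ninaD, tobi and neb were higher, all without overlap.

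Detoxification genes were counted by family. Of 77 cytochrome P450 genes 14 were higher and 8 lower, of 30 glutathione S-transferase genes 8 and 1, and of 30 UDP-glycosyltransferase genes 9 and 4 (2 without yki3SA+ITP-i library 1 or yki3SA library 2). In that order the shares higher were 18.2%, 26.7% and 30.0%, beside 10.6% of all genes tested. The shares lower were 10.4%, 3.33% and 13.3%, beside 10.1% of all genes tested. The shares were not compared by a test. With total-count scaling the P450 genes gave 12 higher and 16 lower, the transferases 6 and 3, and the glycosyltransferases 7 and 6. Numbers higher with 1 library left out were 7, 8, 13, 11, 12 and 10 for P450 genes, 7, 6, 6, 10, 5 and 5 for transferases and 6, 6, 7, 6, 8 and 7 for glycosyltransferases. Without yki3SA+ITP-i library 2, 8 P450 genes were lower. In the fit with a gut marker covariate the numbers higher were 2, 6 and 5, and 5 P450 genes were lower. Cyp6g1 (FBgn0025454, arm 2R), a P450 that degrades insecticides, was at 429, 389 and 522 CPM in yki3SA+ITP-i, 57.6, 86.1 and 70.47 in yki3SA and 2547, 2652 and 1340.0 in control. The 3 groups were fully separate, with control highest (log2 fold change 2.65, SE 0.27, adjusted p = 2.8e-04). Cyp6a20 averaged 111 ± 29.1 CPM in yki3SA+ITP-i, 481 ± 70.9 in yki3SA and 305 ± 134 in control and fell (log2 -2.11, SE 0.30, adjusted p = 0.0016), as did Cyp6d5 (log2 -1.57, adjusted p = 3.8e-04). GstE10 averaged 417 ± 43.4 CPM in yki3SA+ITP-i, 165 ± 20.6 in yki3SA and 443 ± 30.46 in control and rose (log2 1.34, SE 0.13, adjusted p = 2.2e-04). Ugt35C1 (FBgn0040256, arm 3R) was at 99.4, 113 and 112 CPM in yki3SA+ITP-i, 7.77, 7.27 and 12.54 in yki3SA and 225, 197 and 115 in control, about level with the lowest control library and far above yki3SA (log2 fold change 3.55, SE 0.29, adjusted p = 8.7e-05). Members of these families are similar in sequence, and how reads common to 2 members were counted is not given in the sources used here.

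Of 32 antioxidant genes 4 rose and 6 fell. The small Maf gene maf-S, a partner of the stress factor cnc, averaged 55.3 ± 6.9 CPM in yki3SA+ITP-i, 122 ± 15.4 in yki3SA and 62.4 ± 8.44 in control and fell (log2 -1.15, adjusted p = 8.4e-04). Sod3, an extracellular superoxide dismutase, averaged 97.8 ± 9.61 CPM in yki3SA+ITP-i, 194 ± 13.3 in yki3SA and 125 ± 8.66 in control and fell (log2 -0.99, adjusted p = 4.6e-04), and the mitochondrial peroxiredoxin gene Prx3 averaged 54.4 ± 4.42 CPM in yki3SA+ITP-i, 29.98 ± 2.81 in yki3SA and 70.9 ± 4.23 in control and rose (log2 0.86, adjusted p = 9.1e-04). Catalase (Cat) was not called (adjusted p = 0.75).

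Of 12 mucin-related genes, for secreted or surface glycoproteins, 8 were higher and none lower, with a median of 1.57. Muc68Ca (FBgn0036181, arm 3L) was at 22.8, 28.05 and 31.1 CPM in yki3SA+ITP-i, 5.73, 2.6 and 2.41 in yki3SA and 2.66, 1.45 and 2.56 in control, above both yki3SA and control in every library (log2 fold change 2.94, SE 0.36, adjusted p = 7.5e-04). Mur18B (FBgn0030999, arm X) was at 47312, 41071 and 45630.5 CPM in yki3SA+ITP-i, 24348, 24956 and 18449 in yki3SA and 57064, 59846 and 51015 in control, and here the yki3SA+ITP-i libraries lay between those of the other groups (log2 fold change 0.98, SE 0.14, adjusted p = 0.0017). Muc11A rose by 1.41 (adjusted p = 1.5e-04). No alternative fit moved the count of 8 by more than 1.5 times. Of 31 septate junction and barrier genes 3 rose and 1 fell, or 2 and 6 with total-count scaling. Gliotactin (Gli), which seals corners between 3 cells, averaged 161 ± 33.7 CPM in yki3SA+ITP-i, 61.3 ± 9.82 in yki3SA and 154 ± 46.1 in control and rose (log2 1.40, adjusted p = 0.003).

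Of 8 CD36 family genes, scavenger receptors for lipids and carotenoids, 4 rose and none fell. ninaD (FBgn0002939, arm 2L), which takes up carotenoids, was at 58.9, 67.50 and 44.8 CPM in yki3SA+ITP-i, 3.08, 3.94 and 2.98 in yki3SA and 25.00, 18.1 and 17.4 in control. It was the highest in yki3SA+ITP-i, above control as well (log2 fold change 4.10, SE 0.22, adjusted p = 1.4e-05). emp averaged 94.8 ± 9.57 CPM in yki3SA+ITP-i, 29.97 ± 1.76 in yki3SA and 70.8 ± 5.95 in control and rose (log2 1.66, SE 0.11, adjusted p = 3.8e-05). Of 51 lipid genes 11 rose (4 without yki3SA+ITP-i library 1 or 2 or yki3SA library 3, 5 without yki3SA library 2) and 4 fell (2 without yki3SA+ITP-i library 1 or 2), or 3 and 2 in the fit with a gut marker covariate. Desat1, a fatty acid desaturase, averaged 746 ± 140.2 CPM in yki3SA+ITP-i, 1659 ± 130.3 in yki3SA and 1121 ± 67.6 in control and fell (log2 -1.15, SE 0.15, adjusted p = 9.2e-04), and the lipocalin gene NLaz averaged 502 ± 6.8 CPM in yki3SA+ITP-i, 902 ± 140.1 in yki3SA and 272 ± 26.52 in control and fell (log2 -0.84, adjusted p = 0.0028). Scp2, a peroxisomal lipid carrier, averaged 539.6 ± 39.2 CPM in yki3SA+ITP-i, 77.50 ± 13.49 in yki3SA and 1010.0 ± 238 in control and rose (log2 2.80, SE 0.19, adjusted p = 3.9e-05).

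Of 32 insulin, AKH and fasting genes 3 rose and 6 fell. The calls for Ilp6, Akt, Lnk, tobi and Pepck2 held in every alternative fit. tobi (FBgn0261575, arm 3R), a glucosidase-like gene known as a target of brain insulin, was at 37.3, 27.54 and 48.7 CPM in yki3SA+ITP-i, 2.56, 2.13 and 1.62 in yki3SA and 18.8, 22.3 and 15.3 in control, highest in yki3SA+ITP-i (log2 fold change 4.18, SE 0.27, adjusted p = 3.3e-05). Ilp6 (FBgn0044047, arm X), an insulin-like peptide, was at 2.66, 3.29 and 2.69 CPM in yki3SA+ITP-i, 10.2, 12.8 and 14.98 in yki3SA and 2.39, 6.98 and 4.01 in control. The yki3SA libraries were highest, and yki3SA+ITP-i and control overlapped (log2 fold change -2.14, SE 0.36, adjusted p = 0.0034). Lnk and Akt, of the insulin receptor pathway, fell (log2 -0.80 and -0.54, adjusted p = 0.0078 and 0.0073), and Pepck2, of glucose synthesis, averaged 38.3 ± 19.3 CPM in yki3SA+ITP-i, 10.1 ± 3.11 in yki3SA and 3.57 ± 0.521 in control and rose (log2 1.93, adjusted p = 0.0091). Lnk lies in a run of 8 neighbouring tested genes on 3R that all fell, described below.

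Growth signalling lists are described by the share of members called, which rests on few genes each and was not compared by a test. The shares lower were 4.35% for yki and Hippo pathway genes and 2.04% for cell cycle genes. They were 13.3% for Pvf, Pvr, MAPK and JNK genes and 22.2% for JAK-STAT and Turandot genes. Over all genes tested, 10.1% were lower. Of 23 yki and Hippo pathway genes none rose and 1 fell, mats (log2 -0.52, adjusted p = 0.016), a call lost when any one of 4 tumour libraries was left out, and the yki target gene Diap1 was not called (log2 0.37, adjusted p = 0.23). Of 49 cell cycle genes none rose and 1 fell, RnrS, a call lost without yki3SA+ITP-i library 1 or 2 or yki3SA library 3 and in fits with a gut marker covariate. Without yki3SA library 3 the same list had 15 members higher and none lower, and its summed level was 741, 652 and 1115 CPM in yki3SA+ITP-i libraries and 740.3, 727 and 1859 CPM in yki3SA libraries, with yki3SA library 3 the highest. Of 30 Pvf, Pvr, MAPK and JNK genes 1 rose and 4 fell (1 without yki3SA+ITP-i library 1, 2 without yki3SA library 2), with 9 lower under total-count scaling. aos, a feedback inhibitor of the EGF receptor, averaged 5.06 ± 0.569 CPM in yki3SA+ITP-i, 17.4 ± 2.15 in yki3SA and 5.56 ± 1.01 in control and fell (log2 -1.78, SE 0.19, adjusted p = 3.6e-04). Of 18 JAK-STAT and Turandot genes none rose and 4 fell (1 without yki3SA+ITP-i library 1, 2 or 3 or yki3SA library 2). The cytokine gene upd3 was at 1.77, 2.19 and 1.98 CPM in yki3SA+ITP-i and 5.87, 15.4 and 5.17 CPM in yki3SA (log2 -2.15, adjusted p = 0.022). That call was lost without yki3SA+ITP-i library 1, 2 or 3 or yki3SA library 2 and in fits with a gut or ovary marker covariate. vir-1 averaged 46.6 ± 16.1 CPM in yki3SA+ITP-i, 112 ± 22.2 in yki3SA and 57.6 ± 14.6 in control and fell (log2 -1.27, adjusted p = 0.011).

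Among clock genes, 1 of 16 rose and 3 fell, with 6 lower under total-count scaling. tim (FBgn0014396, arm 2L), a core clock gene whose level swings over the day, was at 73.47, 88.1 and 50.1 CPM in yki3SA+ITP-i, 387, 387 and 330.1 in yki3SA and 465, 609 and 721 in control. The yki3SA+ITP-i libraries were the lowest of all (log2 fold change -2.38, SE 0.23, adjusted p = 1.9e-04). The hour of dissection is not given in the labels, and its part in this result was not tested. cwo, a clock repressor, averaged 112 ± 8.07 CPM in yki3SA+ITP-i, 173 ± 18.6 in yki3SA and 119.8 ± 16.51 in control and fell (log2 -0.63, adjusted p = 0.0094). Of 18 enteroendocrine peptide genes 4 rose (1 without yki3SA+ITP-i library 1 or yki3SA library 3, 2 without yki3SA+ITP-i library 2 or yki3SA library 1) and 1 fell. Orcokinin (FBgn0034935, arm 2R), a neuropeptide of enteroendocrine cells, was at 16.3, 20.7 and 20.6 CPM in yki3SA+ITP-i, 108, 99.49 and 74.7 in yki3SA and 14.7, 14.9 and 10.8 in control, with the yki3SA+ITP-i libraries close above control and far below yki3SA (log2 fold change -2.29, SE 0.19, adjusted p = 8.7e-05). The summed level of the enteroendocrine list overlapped between groups, with 438 to 452 CPM in yki3SA+ITP-i, 406 to 495 CPM in yki3SA and 449 to 540.2 CPM in control.

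Further genes stood out by size or by the smallest p. The mangetout gene mtt (FBgn0050361, arm 2R), a relative of glutamate receptors, was at 12.2, 8.22 and 9.05 CPM in yki3SA+ITP-i, 44.2, 45.8 and 43.1 in yki3SA and 1.27, 2.52 and 2.23 in control (log2 fold change -2.17, SE 0.24, adjusted p = 3.7e-04). Culd averaged 26.4 ± 6.95 CPM in yki3SA+ITP-i, 197 ± 32.1 in yki3SA and 254 ± 71.2 in control and fell below both other groups (log2 -2.90, SE 0.25, adjusted p = 1.1e-04). CG14302 was at 0.608, 2.4 and 1.01 CPM in yki3SA+ITP-i, 79.9, 70.8 and 89.04 in yki3SA and 0.647, 2.66 and 0.301 in control, so that it was high in yki3SA and low in both other groups (log2 fold change -5.90, SE 0.70, adjusted p = 5.9e-04). CG14275 behaved alike, with averages of 3.31 ± 2.22 CPM in yki3SA+ITP-i, 56.2 ± 13.45 in yki3SA and 0.557 ± 0.381 in control (log2 -4.08, adjusted p = 9.9e-04).

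CG7968 (FBgn0028532, arm 2L) had the smallest p of all genes and was at 209, 211 and 199 CPM in yki3SA+ITP-i, 16.9, 14.1 and 11.8 in yki3SA and 230.3, 187 and 229 in control. The yki3SA+ITP-i and control libraries overlapped each other and lay far above yki3SA (log2 fold change 3.85, SE 0.16, adjusted p = 4.4e-06). CG9512 averaged 653 ± 24.8 CPM in yki3SA+ITP-i, 48.1 ± 10.7 in yki3SA and 3643 ± 959 in control and rose to a level between yki3SA and control (log2 3.76, SE 0.23, adjusted p = 2.3e-05). smp-30, a relative of the senescence marker gene regucalcin, averaged 459 ± 54.51 CPM in yki3SA+ITP-i, 72.2 ± 9.55 in yki3SA and 664 ± 59.9 in control (log2 2.67, SE 0.15, adjusted p = 1.4e-05), and the biotinidase gene Btnd averaged 138 ± 22.03 CPM in yki3SA+ITP-i, 10.9 ± 2.497 in yki3SA and 168 ± 41.98 in control (log2 3.67, SE 0.25, adjusted p = 3.8e-05). neb, a kinesin gene, was at 293, 295 and 281 CPM in yki3SA+ITP-i, 29.2, 39.46 and 49.05 in yki3SA and 23.7, 22.46 and 21.52 in control (log2 fold change 2.88, SE 0.17, adjusted p = 2.1e-05), with the yki3SA+ITP-i libraries far above both other groups. The sodium channel family gene ppk6 averaged 16.4 ± 6.56 CPM in yki3SA+ITP-i, 0.848 ± 0.541 in yki3SA and 0.569 ± 0.351 in control and rose (log2 4.29, adjusted p = 0.0016). CG42704 had the largest fitted rise among named genes with counts in both tumour genotypes and rested on 2 libraries. It was at 0.507, 177 and 83.7 CPM in yki3SA+ITP-i, 0.246, 0.246 and 0.1 in yki3SA and 2.44, 0.966 and 2.08 in control (log2 8.84, SE 1.70, adjusted p = 0.0069). Its call was lost with limma-voom.

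The noncoding RNA gene lncRNA:roX1 (FBgn0019661, arm X), part of the machinery that raises X-linked expression in males, was at 4.76, 3.47 and 5.23 CPM in yki3SA+ITP-i, 37.05, 45.8 and 40.2 in yki3SA and 11.05, 11.8 and 11.2 in control (log2 fold change -3.19, SE 0.17, adjusted p = 1.4e-05). It was lower in yki3SA+ITP-i than in both other groups. Of the 7 dosage compensation and male genes tested it was the one called, and mle, its helicase partner, was not (log2 0.02, adjusted p = 0.91). Of 429 tested long noncoding and antisense RNA genes 33 rose (14 without yki3SA+ITP-i library 1, 17 without yki3SA+ITP-i library 2 or yki3SA library 3, 18 without yki3SA library 2) and 21 fell.

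On the 5 large chromosome arms the shares called were alike, from 9.57% of tested genes higher on 2R to 11.1% on 2L and from 8.62% lower on 2L to 11.4% on 3L. The small chromosome 4 had 15 of 85 genes higher and 3 lower. Along the genome 8 runs of at least 5 consecutive tested genes were called the same way, 7 of them higher and 1 lower. The longest was 9 genes of the mitochondrial genome, mt:CoI to mt:ND4L, with a median of 1.12. Runs of 6 genes rose on 2L (CG33281 to GramD1B, median 1.100) and on 3R (Cpr92A to CG16727, median 2.23). Runs of 5 rose on 2L (CG33306 to CG7968, median 3.85) and on 3R (Fancl to Alp13, median 1.94). Eggshell genes made up most of the remaining pair, Cp18 to Prm on 3L (median 3.53) and Cp7Fa to Cp38 on X (median 5.18). The run that fell lay on 3R. Among tested genes in their order along 3R, SppL, Lnk, CG5913, Sodq, Mco3, CG31091, CG31089 and asRNA:CR43259 follow each other, and all 8 fell, with a median of -4.33. Mco3 (FBgn0039387), a multicopper oxidase, was at 0.38, 0.255 and 0.518 CPM in yki3SA+ITP-i, 55.2, 81.1 and 72.2 in yki3SA and 137, 61.02 and 146 in control (log2 fold change -7.48, SE 0.43, adjusted p = 1.6e-05). It was thus expressed in yki3SA and control and nearly absent from every yki3SA+ITP-i library. Sodq, related to superoxide dismutases, was at 0.862, 0.536 and 0.825 CPM in yki3SA+ITP-i, 46.7, 68.02 and 61.97 in yki3SA and 86.2, 46.53 and 100.5 in control (log2 fold change -6.30, SE 0.35, adjusted p = 1.4e-05). CG31091 was at 0.203, 0.051 and 0.306 CPM in yki3SA+ITP-i, 58.3, 69.4 and 60.8 in yki3SA and 161, 46.8 and 163 in control (log2 fold change -8.35, SE 0.63, adjusted p = 6.8e-05). CG31089 averaged 0.565 ± 0.133 CPM in yki3SA+ITP-i, 24.4 ± 2.93 in yki3SA and 54.1 ± 30.6 in control and asRNA:CR43259 averaged 2.03 ± 0.702 CPM in yki3SA+ITP-i, 18.98 ± 4.23 in yki3SA and 43.1 ± 16.1 in control (log2 -5.43 and -3.23). The first 3 genes of the run fell less, with log2 values of -1.74 for SppL, -0.80 for Lnk and -1.19 for CG5913. The next tested gene on one side, Tsp96F, was not called (log2 -0.25, adjusted p = 0.36), and on the other side kumpel was higher, at 6179, 5804 and 4455 CPM in yki3SA+ITP-i and 2755, 3165 and 2532 CPM in yki3SA (log2 0.96, adjusted p = 0.004). A difference between fly stocks at this place was not tested, and reads of asRNA:CR43259 and an overlapping gene cannot be told apart unless the counting used strand. These 2 flanking genes and SppL and CG5913 of the run were named for their place, after their values were seen. Lnk is also named above as a member of the insulin list.

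**Figure D5:**
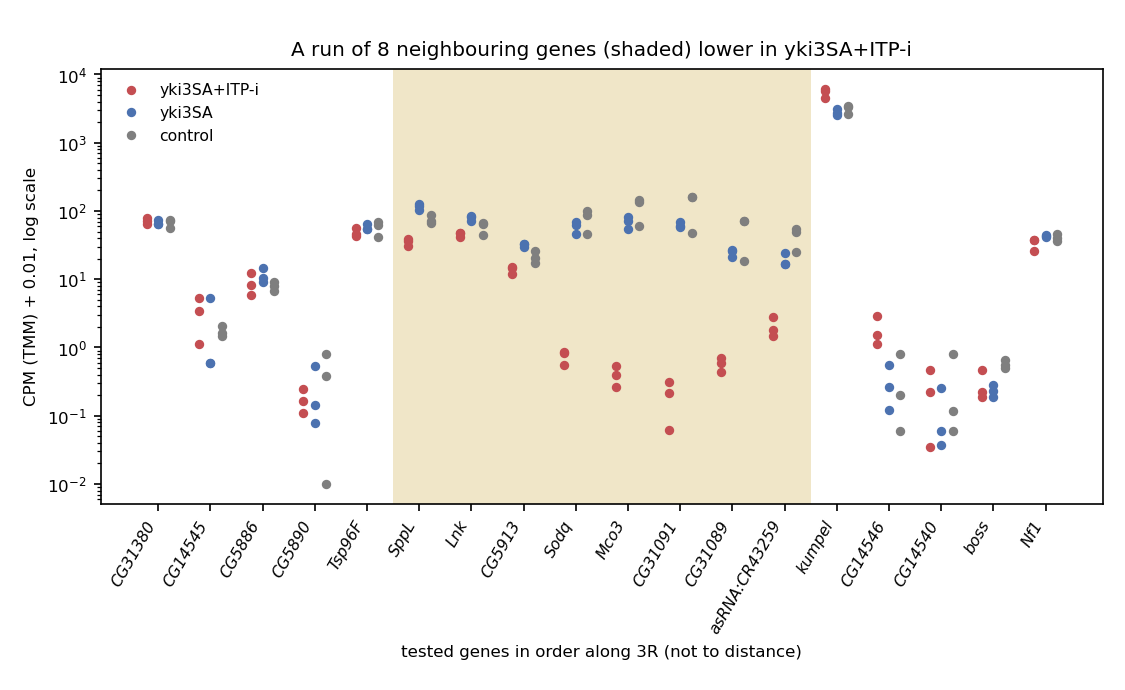
CPM after TMM scaling plus 0.01, on a log axis, of 18 tested genes in their order along 3R, with 1 point per library for yki3SA+ITP-i, yki3SA and control. Within the shaded run of 8 genes the yki3SA+ITP-i points lie below all yki3SA points, and for Sodq, Mco3, CG31091 and CG31089 they lie under 1 CPM, while the 5 genes on its left side do not separate.

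A few genes had no counts in one of the 2 tumour genotypes. mthl8 (FBgn0052475, arm 3L), a relative of the receptor Methuselah, had no count in any yki3SA or control library and was at 9.73, 10.2 and 12.04 CPM in yki3SA+ITP-i, at least 123-fold higher against a floor of 3 counts in the smallest library (0.0866 CPM). In the order of the table's genes along 3L it is the first. Jon25Bi, a serine protease gene of the gut, and asRNA:CR45600 had no count in yki3SA and were at 3.17, 1.4 and 4.52 CPM and 2.13, 1.86 and 1.74 CPM in yki3SA+ITP-i, at least 35.0-fold and 22.1-fold higher. CG13460 had no count in yki3SA+ITP-i and was at 1.77, 1.39 and 1.04 CPM in yki3SA and, for comparison, 2.06, 1.93 and 2.59 CPM in control, at least 16.2-fold lower in yki3SA+ITP-i. These floors cover counting error only, and reads without molecular identifiers are not independent molecules.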

How the data were processed

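RNA of Malpighian tubules was sequenced in 9 libraries, 3 each of yki3SA+ITP-i, yki3SA and control flies. The authors deposited 1 table of whole-number read counts per gene, unnormalised, with 1 column per library. TopHat, Cufflinks, HTSeq and DESeq were used, per the submitters' processing notes, which give no versions; no source used here gives the genome build, annotation or strand setting. Of 17611 gene IDs, 17552 were paired with a symbol through a reference gene table; the order of genes along the chromosomes was taken from an Ensembl annotation, and no coordinates are given. The members and gene lists were chosen with earlier results of these data known.

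Groups came from the sample labels. Counts were fitted in edgeR 4.0.16 (R 4.3.3) with filterByExpr, TMM factors and a quasi-likelihood fit of the 3 groups over all 9 libraries (6 residual degrees of freedom), and yki3SA+ITP-i was tested against yki3SA with Benjamini-Hochberg adjustment over 10253 genes. All adjusted p-values in the text are from that fit. TMM factors were 0.94 to 1.03 in yki3SA+ITP-i, 1.06 to 1.21 in yki3SA and 0.88 to 0.95 in control. Library totals of 34640437 to 49338340 counts set the counting error. No 2 libraries matched within counting noise. Single-gene levels are CPM with TMM; list sums are CPM of total counts unless TMM is named.

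Genes were named by a rule: 5 transport, hormone and strain lists in full, the 12 largest rises and falls with at least 10 CPM and no overlap and 8 further ones with names, the 4 rises and 4 falls of smallest p and 2 most abundant members of every other list, the 10 smallest p in each direction, and genes absent from 1 group. Of these, the text gives values mainly for those whose call held in every alternative. Alternatives were upper-quartile, DESeq2 1.42.0 or total-count scaling, other filters, robust dispersions, the 6 libraries alone, a replicate block, each library left out, marker sums as covariates, DESeq2 and limma-voom (limma 3.58.1). Lists were described by counts and medians, with no set test.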

Additional observations from a re-analysis of the deposited data

How the results depend on the processing

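Of 401 named genes with a test 295 were called, 161 of them kept the call under all 23 alternative fits, and none of the called genes changed direction. Calls lost among them numbered 125 in the fit with a gut marker covariate, 89, 68 and 40 without yki3SA+ITP-i library 1, 2 or 3, and 40, 63 and 54 without yki3SA library 1, 2 or 3. DESeq2 lost none of those it tested. Over all genes, leaving out 1 library of the 9 gave 1028 to 2047 calls in place of 2126, with 622 to 1138 higher and 406 to 909 lower. Without both tumour libraries numbered 3 there were 1362, with 743 higher and 619 lower, and in the fit with a gut marker covariate 677, with 402 higher and 275 lower. Total-count scaling moved the median of all genes to -0.24, against -0.04 with TMM, and gave 2243 lower and 883 higher. Requiring a 2-fold difference left 883, with 661 higher and 222 lower. Fits that leave libraries out have fewer samples, and the causes of the other shifts were not tested. DESeq2 called 2671 genes and limma-voom 2328. Deviations of same-numbered libraries of the 2 tumour genotypes correlated at 0.07, 0.08 and 0.18, and yki3SA+ITP-i library 1 correlated slightly better with yki3SA library 2, so the numbers were not taken to pair them. A replicate block gave 2287 calls, with 1184 higher and 1103 lower. The planned search for promoter motifs was not run, as no promoter sequence was used here. Depth limits low genes such as Nos and Eglp1, near 1 CPM.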

Other observations

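Further gene groups held single members that changed in yki3SA+ITP-i tubules. Their counts were not tested against the shares of all genes, 10.6% higher and 10.1% lower. Some shares lay near those, with 9.3% higher and 6.98% lower for endoplasmic reticulum genes and 9.88% and 13.6% for translation genes. Heat shock protein genes had 9.09% higher. The largest share higher among these groups was 33.3%, for Methuselah-like receptor genes. Of 12 Methuselah-like receptor genes 4 rose and none fell. mthl3 averaged 46.53 ± 11.7 CPM in yki3SA+ITP-i, 16.46 ± 3.07 in yki3SA and 54.49 ± 7.99 in control (log2 1.499, SE 0.21, adjusted p = 0.0015), and mthl4 averaged 23.1 ± 3.26 CPM in yki3SA+ITP-i, 9.03 ± 1.11 in yki3SA and 22.9 ± 2.495 in control (log2 1.36, adjusted p = 5.6e-04). Of 25 neprilysin and Ance genes, for peptidases of the cell surface, 5 rose (2 without yki3SA+ITP-i library 1 or yki3SA library 1 or 3, 3 without yki3SA+ITP-i library 2) and 2 fell. Nepl16 averaged 2.54 ± 0.674 CPM in yki3SA+ITP-i, 9.92 ± 2.42 in yki3SA and 1.18 ± 0.212 in control and fell (log2 -1.96, adjusted p = 0.0017). Of 20 peroxisome genes 1 rose, Scp2, and 2 fell. Pex11c, of peroxisome division, averaged 67.9 ± 15.46 CPM in yki3SA+ITP-i, 148 ± 12.9 in yki3SA and 79.9 ± 6.85 in control and fell (log2 -1.13, adjusted p = 0.0015).

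Of 22 heat shock protein genes 2 rose and none fell. Hsc70-4, a strongly expressed cytosolic chaperone, averaged 2481 ± 359 CPM in yki3SA+ITP-i and 3388 ± 159 in yki3SA and was not called (log2 -0.45, adjusted p = 0.082). Of 43 genes for protein processing in the endoplasmic reticulum 4 rose and 3 fell, or 3 and 9 with total-count scaling. The chaperone gene Calr of that compartment was not called (log2 -0.63, adjusted p = 0.053). BI-1, an inhibitor of cell death in that compartment, averaged 209.8 ± 27.1 CPM in yki3SA+ITP-i, 330.4 ± 33.6 in yki3SA and 242 ± 17.1 in control and fell (log2 -0.66, adjusted p = 0.0077). Of 81 translation factor and tRNA synthetase genes 8 rose (0 without yki3SA+ITP-i library 1, 1 without yki3SA+ITP-i library 2 or yki3SA library 2 or 3, 3 without yki3SA+ITP-i library 3) and 11 fell (2 without yki3SA+ITP-i library 1, 4 without yki3SA+ITP-i library 2 or yki3SA library 2, 6 without yki3SA library 1 or 3, 7 without yki3SA+ITP-i library 3). With total-count scaling 2 rose and 27 fell. eIF2Bgamma, of translation initiation, averaged 21.2 ± 3.02 CPM in yki3SA+ITP-i, 33.3 ± 0.464 in yki3SA and 26.6 ± 2.24 in control and fell (log2 -0.65, adjusted p = 0.0077). Of 21 eye pigment precursor genes 3 rose and 3 fell (0 without yki3SA+ITP-i library 1 or yki3SA library 1 or 2, 1 without yki3SA+ITP-i library 2 or 3 or yki3SA library 3), among them v and st higher and bw lower. With total-count scaling 3 rose and 8 fell.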
